A study of Homo sapiens with 6 samples.

Results

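The oxidative phosphorylation subunit genes were taken as the protein-coding genes whose symbols begin with NDUFA, NDUFB, NDUFC, NDUFS or NDUFV plus a number, SDHA to SDHD, UQCR, CYC1, COX4 to COX8 or ATP5. The rule found 88 genes among 19974 protein-coding genes on chromosomes 1 to 22 and X, with 36 in complex I, 4 in complex II, 10 in complex III, 19 in complex IV and 19 in complex V. NDUFA4 and NDUFA4L2, listed as COXFA4 and COXFA4L2 in the gene table, were found by their older symbols and placed in complex IV. By textbook knowledge 7 members are tissue-restricted or conditional isoforms, 2 are intronless or partial copies (UQCRHL and ATP5MGL), and the other 79 are called general here. ATP5MF-PTCD1 and NDUFC2-KCTD14, readthrough genes that join a member to its neighbour, were left out. Chromatin immunoprecipitation followed by sequencing was done in unperturbed HEK293T cells, a kidney-derived embryonic line with the SV40 large T antigen. The antibodies were against H3K79me2 (histone H3 dimethylated at lysine 79), H4K16ac (histone H4 acetylated at lysine 16), the histone variant H3.3 and the variant H2A.Z, the last with 1 antibody from CST (list H2AZ CST) and 1 from Abcam (list H2AZ Abcam). Each antibody had 1 library, so no value below has a replicate spread and no test was possible. An input library was part of the study, and no values of it were used here.

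Oxidative phosphorylation passes electrons from NADH and succinate through complexes I and II, ubiquinone, complex III and cytochrome c to oxygen at complex IV, and complex V uses the resulting proton gradient to make ATP. Most subunits are encoded in the nucleus and are needed in nearly every cell, while several complex IV subunits have isoforms used in muscle, lung or testis. H2A.Z and H3.3 occupy nucleosomes beside the starts of active genes, H4K16ac is written by KAT8 in active chromatin, and H3K79me2 is written by DOT1L in the first part of transcribed genes. Peaks mark where an antibody enriched DNA and do not measure expression.

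The authors' lists held 44634 to 76748 peaks on these chromosomes, with median widths of 287 to 496 bp, and H3K79me2 covered the most sequence (64.2 Mb). No source used here gives the read depth. Values of −log10 q, the authors' significance of a peak, are compared only within a list, mostly as the percentile of a gene's strongest start peak among the start peaks of all protein-coding genes in that list. A start peak is a peak with at least 1 bp within 1 kb of any listed start of the gene. For the 17 members and 4162 protein-coding genes without a listed start, either end of the gene was used. PAX2 and LHX1, developmental kidney genes looked at as a description of the line, had a peak in all 5 lists at PAX2 and in all but H4K16ac at LHX1.

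Nearly all general subunit genes carried H2A.Z and H3K79me2 at their starts. H3K79me2 lay at the start of 79 of 88 members (89.8%, exact Clopper-Pearson 95% interval 81.5 to 95.2), where 55.6% of all protein-coding genes had it. H2AZ CST lay at 80 members (90.9%, 82.9 to 96.0) against a background of 70.2%, and H2AZ Abcam at 77 members (87.5%, 78.7 to 93.6) against 70.7%. H3.3 lay at 63 members (71.6%, 61.0 to 80.7) against 63.7%. H4K16ac lay at 49 members (55.7%, 44.7 to 66.3) against 53.0%, so the share for H4K16ac was near the background. The intervals cover counting error only. All 5 lists met at the start of 40 members (45.5%), against 37.3% of all protein-coding genes, and none of the 5 lay at 3 members (3.41%), against 22.1%.

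H3K79me2 and both H2AZ lists differed by class of gene, while in H3.3 and H4K16ac the exact intervals of the classes overlapped. Among the 7 tissue-restricted members H3K79me2 was at 0, against 55.6% of all protein-coding genes. H4K16ac was at 3 (42.9%, background 53.0%), H3.3 at 4 (57.1%, 63.7%), H2AZ CST at 3 (42.9%, 70.2%) and H2AZ Abcam at 2 (28.6%, 70.7%). Among the 79 general members H3K79me2 was at 78 (98.7%), H4K16ac at 46 (58.2%), H3.3 at 59 (74.7%), H2AZ CST at 77 (97.5%) and H2AZ Abcam at 75 (94.9%). A count of 0 of 7 allows a share of up to 41.0% by the exact interval, so the isoforms are too few for a narrow statement about their kind. Restricting the count to the 71 members whose start is listed left H3K79me2 at 66 (background 58.4%), H4K16ac at 41 (53.5%), H3.3 at 50 (65.0%), H2AZ CST at 66 (71.9%) and H2AZ Abcam at 64 (72.6%).

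**Figure D1:**
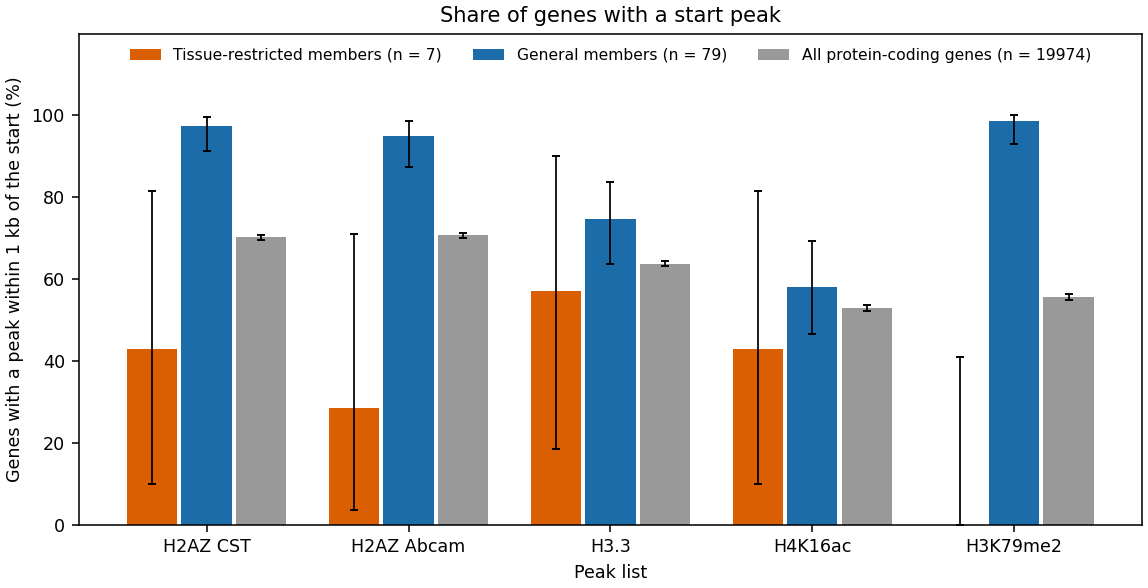
Share of genes with a peak within 1 kb of the start (y axis, %) in each of the 5 peak lists, for the 7 tissue-restricted members, the 79 general members and all 19974 protein-coding genes. Bars are shares and lines are exact 95% Clopper-Pearson intervals, and the H3K79me2 bar of the tissue-restricted members is at 0 while that of the general members is at 98.7%.

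Complex I, the NADH dehydrogenase, had H2AZ Abcam at all 36 genes, H2AZ CST and H3K79me2 at 35 each, H3.3 at 27 and H4K16ac at 22, and 19 genes had all 5 lists. NDUFB2, an accessory subunit of the membrane arm, had the strongest H2A.Z of the complex, with −log10 q of 124 in H2AZ CST and 341 in H2AZ Abcam, and values of 66.4 in H3.3, 21.3 in H4K16ac and 295 in H3K79me2. These placed it at percentile 99.1 in H2AZ CST and 98.9 in H2AZ Abcam. NDUFB11, an X-linked accessory subunit, had −log10 q of 41.0 in H2AZ CST, 139 in H2AZ Abcam, 106 in H3.3, 36.5 in H4K16ac and 769 in H3K79me2. It was the highest of complex I in H3.3 and H3K79me2. Its summits lay at −720 to −675 bp from its listed start, on the side of RBM10, which runs the other way from 519 bp away. They still fell inside the annotated span of NDUFB11, which extends beyond that listed start. NDUFA11, also of the membrane arm, led the complex in H4K16ac with −log10 q of 46.5, at percentile 99.3.

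The core subunits of the matrix arm of complex I differed among themselves. NDUFV1, which binds NADH and flavin, and NDUFS1 and NDUFS3 had both H2AZ lists and H3K79me2 but neither H3.3 nor H4K16ac. NDUFV2, another NADH-end subunit, had H2AZ Abcam at −log10 q 25.4 and H3K79me2 at 109 and none of the other lists. NDUFS7 and NDUFS8, which carry the iron-sulphur clusters nearest to ubiquinone, had all 5 lists. The accessory subunits NDUFA5, NDUFA9 and NDUFS4 had both H2AZ lists and H3K79me2 only, and their H3K79me2 percentiles were low, at 9.13 for NDUFA5, 16.4 for NDUFA9 and 15.7 for NDUFS4.

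At NDUFA5 the marks depended on which listed start was looked at. The gene has 3 listed starts on the minus strand of chromosome 7, the outermost 170 bp from the start of ASB15. No list had a peak at the outer pair, while H2AZ CST (−log10 q 14.4), H2AZ Abcam (17.4) and H3K79me2 (16.2) had one at the inner start, 43833 bp into the gene. The 150 bases before the outermost and the inner start are shown because only the inner one was marked (RefSeq, hg38, minus strand, 5′ to 3′). Capitals mark GGGCGG, the word bound by SP1, and CCAAT, bound by NF-Y, on either strand, so a reverse CCAAT reads ATTGG.
NDUFA5 outer start, chr7:123601652-123601801: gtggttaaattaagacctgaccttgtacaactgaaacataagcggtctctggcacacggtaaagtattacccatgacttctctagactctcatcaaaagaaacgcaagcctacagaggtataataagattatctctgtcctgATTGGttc
NDUFA5 inner start, chr7:123557819-123557968: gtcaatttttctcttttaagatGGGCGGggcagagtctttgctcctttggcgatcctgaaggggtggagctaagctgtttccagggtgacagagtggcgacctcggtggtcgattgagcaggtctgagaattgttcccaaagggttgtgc
The 300-base promoter of the inner start held 15 CG dinucleotides and that of the outermost start 3. COX7A2 had the same arrangement, with peaks of H2AZ CST, H3.3 and H3K79me2 at a start 6497 bp inside the gene (22 CG dinucleotides) and no peak at its outer start (0 CG dinucleotides).

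Complex II, succinate dehydrogenase, is the smallest, and all 4 genes had both H2AZ lists and H3K79me2. The backgrounds were 70.2% for H2AZ CST, 70.7% for H2AZ Abcam and 55.6% for H3K79me2. SDHA, the flavoprotein that oxidises succinate, had the strongest peaks of the complex in every list that marked it, with −log10 q of 87.9 in H2AZ CST, 220 in H2AZ Abcam, 12.8 in H3.3 and 576 in H3K79me2, and it had no H4K16ac. SDHB, the iron-sulphur subunit, had −log10 q of 30.3 in H2AZ CST, 14 in H2AZ Abcam, 5.46 in H3.3 and 100 in H3K79me2, and no H4K16ac. Among the membrane anchors, SDHC was the 1 gene of the complex with all 5 lists, with H4K16ac at −log10 q 6.26, and SDHD had only the H2AZ lists and H3K79me2. The stretch between the start of SDHA and the start of CCDC127, which runs the other way from 167 bp upstream, is shown because the binding word of the transcription factor NRF1, with any base allowed at its sixth letter, occurs 4 times in it, each copy 49 bases from the one before. It is given from RefSeq, hg38, plus strand, with the words in capitals.
SDHA, chr5:218154-218319: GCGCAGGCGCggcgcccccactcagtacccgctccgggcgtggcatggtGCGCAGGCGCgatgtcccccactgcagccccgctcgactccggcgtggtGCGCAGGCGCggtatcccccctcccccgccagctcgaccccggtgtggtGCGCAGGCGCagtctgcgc
The words begin at −166, −117, −68 and −19 from the SDHA start. The H2AZ CST summit lay at −300 bp and the H2AZ Abcam summit at −255 bp, on the CCDC127 side, and the H3K79me2 summit lay 397 bp into SDHA.

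In complex III, cytochrome bc1, all 9 general genes had both H2AZ lists and H3K79me2, beside the same backgrounds. H3.3 was at 6 (66.7%) against 63.7% and H4K16ac at 5 (55.6%) against 53.0%, both near the background. UQCRH, the hinge protein between cytochromes c1 and c, had the highest H3K79me2 of all members, with −log10 q of 854 at percentile 99.8. Its other values were 12.2 in H2AZ CST, 35.5 in H2AZ Abcam, 15.0 in H3.3 and 25.5 in H4K16ac, and the H3K79me2 peak was 15668 bp wide with its summit at −1079 bp, over LRRC41, whose start is 82 bp away. CYC1, cytochrome c1, had 37.1, 206, 49.3, 20.1 and 693 in H2AZ CST, H2AZ Abcam, H3.3, H4K16ac and H3K79me2. UQCRC1, a core protein, led the complex in both H2AZ lists, with 67.2 in H2AZ CST and 251 in H2AZ Abcam. UQCRFS1, the Rieske iron-sulphur protein, UQCRB and the core protein UQCRC2 had neither H3.3 nor H4K16ac. High-ranked starts and starts with few lists thus stood in 1 complex. The copy UQCRHL, 276 bp long, had no peak in any list.

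In complex IV, cytochrome c oxidase, all 12 general genes had H3K79me2, with 11 genes in H2AZ CST, 8 in H2AZ Abcam, 8 in H3.3 and 6 in H4K16ac. All 67 general members outside complex IV had H2AZ Abcam, and the 4 general members without it (COX6B1, COX7A2, COX7B and NDUFA4) were all of complex IV. COX7B had H3K79me2 alone, at −log10 q 61.3. COX6B1 had H2AZ CST at 10.5 and H3K79me2 at 92.3, and NDUFA4 had H2AZ CST at 7.78 and H3K79me2 at 45.3. COX4I1, the general form of the largest nuclear-encoded subunit, had −log10 q of 16, 47.6, 18.9, 11.4 and 830 in H2AZ CST, H2AZ Abcam, H3.3, H4K16ac and H3K79me2. Its H3K79me2 was at percentile 99.6 while its H2AZ CST was at 19.4, and its start lies 151 bp from that of EMC8. COX5A, which binds the matrix side, led the general genes of complex IV in H3.3 with 50.5 and had H3K79me2 at 734. COX7A2L, a factor of respiratory supercomplexes, led these general genes in H2AZ CST with 43.7, and COX8A led them in H2AZ Abcam with 103 and in H4K16ac with 16.4.

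In complex V, the ATP synthase, all 18 general genes had both H2AZ lists and H3K79me2, beside the same backgrounds. H3.3 was at 15 (83.3%, interval 58.6 to 96.4) against 63.7% and H4K16ac at 12 (66.7%, 41.0 to 86.7) against 53.0%. Both of these backgrounds lay within the exact intervals. ATP5PB, a peripheral stalk subunit, had 65.8, 261, 16.1, 33.2 and 694 in H2AZ CST, H2AZ Abcam, H3.3, H4K16ac and H3K79me2, the highest of the complex in all but H3.3, with its start 208 bp from that of WDR77. The catalytic subunit gene ATP5F1B had the weakest H2AZ CST peak of any general member, at −log10 q 6.35 (percentile 4.01), beside H3K79me2 at 435 (percentile 81.1). ATP5F1D, the delta subunit of the stalk, led in H3.3 with 95.3 in a peak 4693 bp wide. The 3 genes ATP5MC1, ATP5MC2 and ATP5MC3, which encode the same mature subunit of the membrane ring, had H3K79me2 at 103, 98.7 and 550, and ATP5MC1 was the one without H4K16ac. ATP5PO, the stalk subunit that confers oligomycin sensitivity, had only the H2AZ lists and H3K79me2. The copy ATP5MGL lies inside CYB5R3, and its 1 start call was an H3K79me2 peak 569 bp outside it with −log10 q of 5.46, at percentile 1.17.

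**Figure D2:**
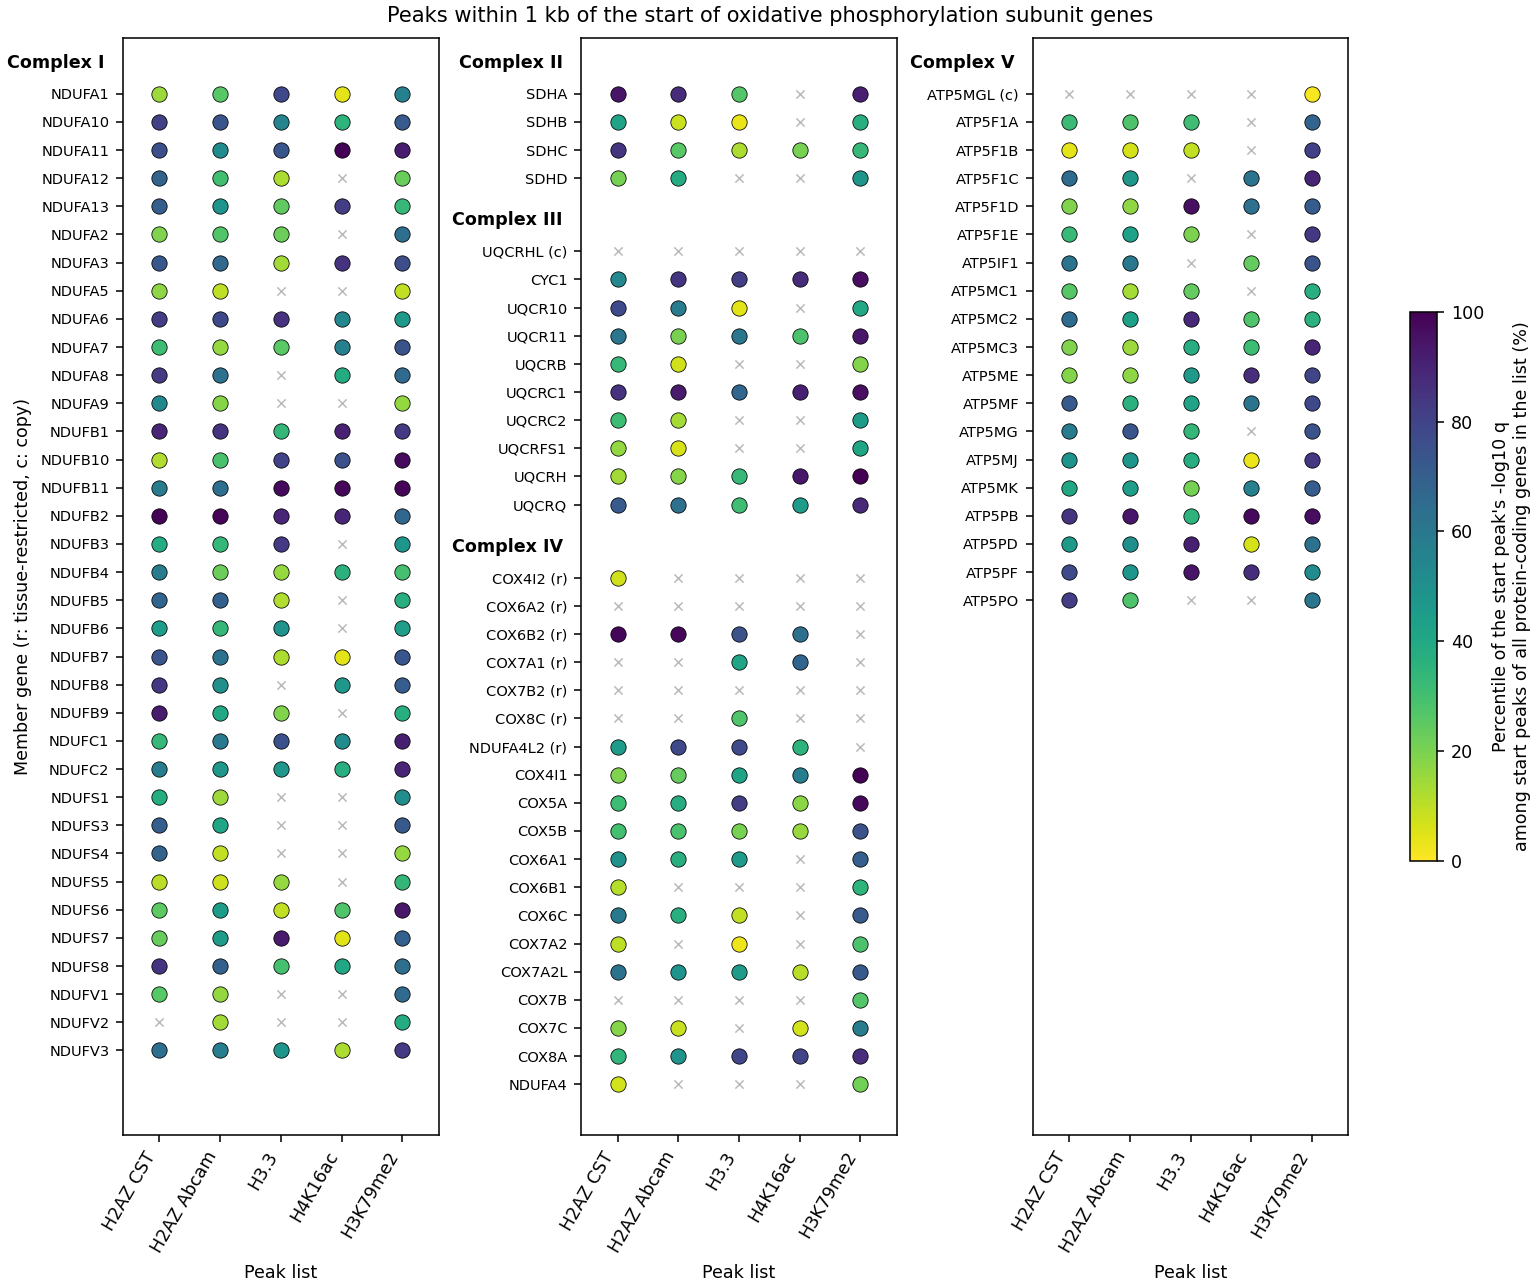
Start peaks of the members, with 1 not shown (rows, by complex) in the 5 lists (columns). Circles are coloured by the percentile of −log10 q among the start peaks of all protein-coding genes in that list, crosses mark no peak, (r) marks tissue-restricted isoforms and (c) copies. The H3K79me2 column is filled for all general members drawn, 78 in number, and empty for the 7 isoforms.

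The 7 tissue-restricted isoforms fell into 3 kinds, and each was set beside its general counterpart. COX6A2, the heart and skeletal muscle form of subunit 6A, and COX7B2, a testis form of 7B, had no peak in any list. The nearest peak to the COX6A2 start was H2AZ CST at 7138 bp, and the nearest to COX7B2 was H2AZ Abcam at 122947 bp. Their general counterparts had H3K79me2 at −log10 q 324 (COX6A1) and 61.3 (COX7B), and COX6A1 also had H2AZ CST at 35.0, H2AZ Abcam at 76.4 and H3.3 at 20.6. COX4I2, the form of subunit 4 used in lung and under low oxygen, had a single H2AZ CST peak of −log10 q 7.9, and COX8C, a testis form, a single H3.3 peak of 13.0. COX8C lies inside UNC79. COX7A1, the heart and skeletal muscle form of 7A, had H3.3 at 18.9 and H4K16ac at 13.0 and no H2AZ. The starts of COX4I2 and COX7A1 are not listed, so either end of these genes was counted.

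COX6B2 and NDUFA4L2 had every list except H3K79me2. COX6B2, a testis form of subunit 6B, had −log10 q of 118 in H2AZ CST, 322 in H2AZ Abcam, 41.6 in H3.3 and 12.4 in H4K16ac, and its H2AZ peaks were at percentiles 98.8 and 98.3. Its counterpart COX6B1 was lower in H2AZ CST (10.5), had no H2AZ Abcam, H3.3 or H4K16ac, and had H3K79me2. The H2AZ CST summit lay 601 bp and the H2AZ Abcam summit 604 bp into COX6B2. A gap of 189 bp separates the COX6B2 start from the span of the nearest neighbour, GARIN5B. No protein-coding gene running the other way has a listed start within 1 kb upstream of COX6B2. NDUFA4L2, induced by low oxygen, had 32.2, 181, 44.2 and 7.89 in H2AZ CST, H2AZ Abcam, H3.3 and H4K16ac. Its counterpart NDUFA4 had H2AZ CST at 7.78 and H3K79me2 and no peak in the other 3 lists. An H3K79me2 peak covered 6.01% of NDUFA4L2 near its far end, starting 155 bp inside the gene, where the end of SHMT2 overlaps that of NDUFA4L2 but not the peak. For both pairs the isoform had more of the start lists and its general counterpart had H3K79me2.

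The promoters of COX6A2 and COX6A1 are shown because the isoform had no list and its counterpart had all but H4K16ac (250 bases before each start, RefSeq, hg38, the gene's strand). Capitals mark the SP1 word GGGCGG, the NF-Y word CCAAT and the TATA box word TATAAA on either strand, and the ETS word CCGGAAGT is in neither.
COX6A2, chr16:31428361-31428610, minus strand: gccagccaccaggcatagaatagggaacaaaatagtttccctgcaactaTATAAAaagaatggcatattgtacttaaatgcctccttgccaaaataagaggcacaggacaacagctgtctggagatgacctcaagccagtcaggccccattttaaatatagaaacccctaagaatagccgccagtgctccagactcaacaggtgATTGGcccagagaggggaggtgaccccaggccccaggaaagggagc
COX6A1, chr12:120437863-120438112, plus strand: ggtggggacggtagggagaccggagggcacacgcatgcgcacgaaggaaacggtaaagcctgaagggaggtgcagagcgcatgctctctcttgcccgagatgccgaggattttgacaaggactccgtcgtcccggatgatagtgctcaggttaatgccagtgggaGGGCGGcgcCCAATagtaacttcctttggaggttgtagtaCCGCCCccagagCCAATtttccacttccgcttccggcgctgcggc
Over 300 bases the COX6A2 promoter held 5 CG dinucleotides and that of COX6A1 held 22. Among listed promoters the median count was 13 (range 5 to 31) over the 6 of tissue-restricted members, with COX6B2 at the top, and 22 (0 to 42) over the 79 of general members. It was 21 over all 22132 protein-coding promoters, 27 over those of genes with all 5 lists and 3 over those of genes with none.

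H4K16ac and H3.3 were the lists most often missing from general members. H4K16ac alone was missing at 17 general members, or 19.3% of all 88 members, against 11.1% of all protein-coding genes. Among them were ATP5F1A, ATP5F1B, SDHA, SDHB and COX6A1. H3.3 alone was missing at 5 (ATP5F1C, ATP5IF1, COX7C, NDUFA8 and NDUFB8), or 5.68% of all 88, against 1.52%. Both were missing while H2AZ and H3K79me2 were present at 11 members, or 12.5% of all 88, a combination held by 3.6% of all protein-coding genes. These were ATP5PO, NDUFA5, NDUFA9, NDUFS1, NDUFS3, NDUFS4, NDUFV1, SDHD, UQCRB, UQCRC2 and UQCRFS1. Given both H2AZ lists and H3K79me2 at the start, H3.3 was present at 57 of 73 general members (78.1%) and at 90.4% of all such genes, and H4K16ac at 45 of 73 (61.6%) and at 72.6%. The general members thus stood above the background in H2AZ and H3K79me2, and among genes that have those they stood below it in H3.3 and H4K16ac. With only the 10000 strongest peaks of each list the H2AZ Abcam share was near its background, at 39.8% of members against 39.3% of all genes, and the H3.3 share was below it, at 22.7% against 27.2%.

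General members without H3.3 or H4K16ac also had lower-ranked peaks in the H3K79me2 list. The median H3K79me2 percentile was 73.0 over the 58 with H3.3 and 46.4 over the 20 without it, and 53.1 and 28.1 over all protein-coding genes split in the same way. For H4K16ac the medians were 76.4 over 45 members with it and 40.8 over 33 without it, against 58.3 and 34.8 over all genes. Over the 11 members with H2AZ and H3K79me2 only, the median H2AZ Abcam percentile was 14.6 (5.99 to 40.8). Whether weak enrichment or library depth bears on the missing calls was not tested.

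H3K79me2 covered a larger share of general subunit genes, at the median, than of all protein-coding genes. The median share of the gene under H3K79me2 peaks was 42.7% over the 79 general members (range 2.41 to 100), 0 over the 7 tissue-restricted ones (0 to 6.01), and 1.19% over all protein-coding genes. At least 50% was covered in 36 of 88 members (40.9%), all general, against 7.53% of all protein-coding genes. NDUFA6 lay just above that line with 51.3% and COX5B just below it with 48.2%. Subunit genes are short, with a median length of 9936 bp over the general members and 24170 bp over all genes, so length classes were compared.

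Within each length class the members' median was higher than that of other genes, but lengths still differed inside a class. From 10 to 50 kb the median length was 15843 bp over members, 23031 bp over all genes and 24454 bp over those with a start peak. Below 10 kb it was 5601, 4402 and 5196 bp in the same order. Below 10 kb the median covered share was 60.3% over 40 general members, 0 over all 5658 genes, and 39.5% over the 2313 genes with H3K79me2 at the start. From 10 to 50 kb it was 28.1% over 35 members, 3.87% over all genes and 13.2% over those with a start peak. Above 50 kb it was 4.7% over only 4 members (2.41 to 12.5), 0.882% over all genes and 3.47% over those with a start peak. From a listed start to the end of the last H3K79me2 peak in the gene, the median extent was 2520 bp in members below 10 kb and 2069 bp in all such marked genes, and from 10 to 50 kb it was 8052 bp and 5067 bp.

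Complex by complex, the median covered share over general members was 36.9% in complex I, 14.1% in complex II, 67.4% in complex III, 44.6% in complex IV and 56.3% in complex V. Complex II also had the longest genes, with a median of 42068 bp, against 11826 bp in complex I and 8040 to 8294 bp in the other 3. The highest shares were 100% in NDUFB10, COX8A and ATP5IF1, the inhibitor of complex V, 98.9% in CYC1 and 20.2% in SDHB. The lowest were 2.41% in NDUFA5, 6.61% in SDHC, 13.9% in UQCRC2, 22.6% in COX7A2L and 17.6% in ATP5PD, a stalk subunit gene of only 8107 bp. The peak over NDUFB10 at chr16:1959194-1967533 was 8340 bp wide and also overlapped RPS2 and RNF151, so it does not belong to NDUFB10 alone. The widest start peak of any member, 33518 bp, was at NDUFC1, whose start lies 271 bp from that of NAA15.

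**Figure D3:**
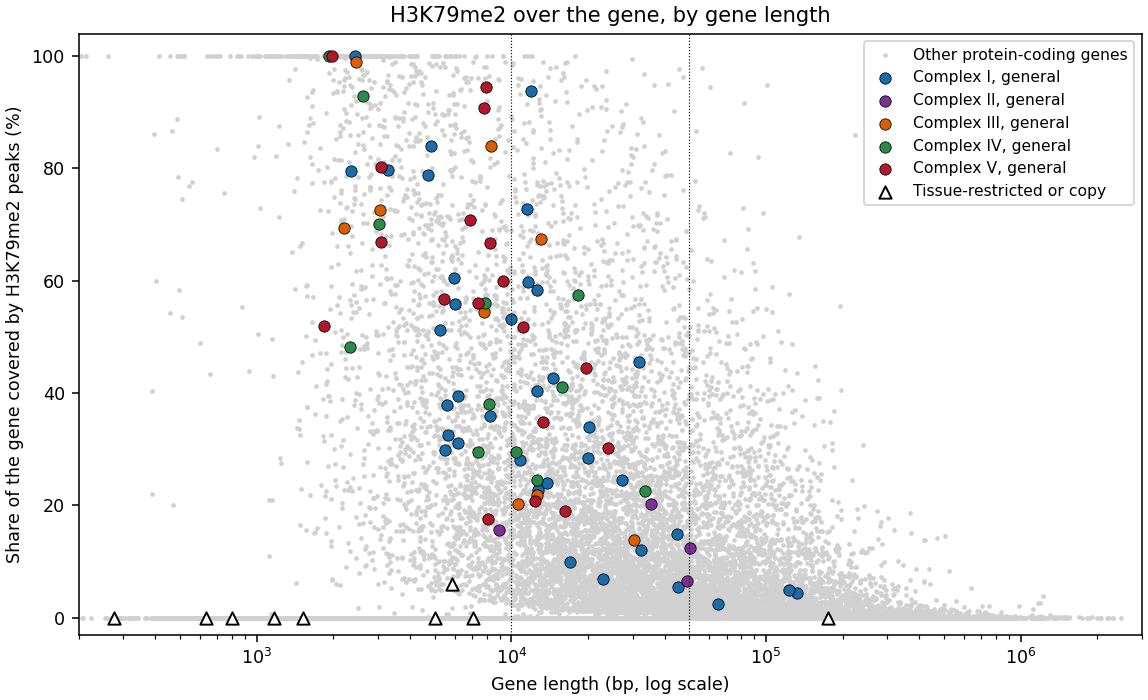
Share of each gene covered by H3K79me2 peaks (y axis, %) against gene length (x axis, bp, log scale). Coloured circles are the 79 general members by complex, open triangles the 7 tissue-restricted members and 2 copies, grey points all other protein-coding genes, and dotted lines mark 10 and 50 kb. General members below 10 kb lie at a median of 60.3% and the triangles at 0 to 6.01%.

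Within the H3K79me2 list the members' start peaks ranked high. The median percentile was 70.0 over 78 general members, 14 of them were in the top 10% and 1 in the bottom 10%. The median was 49.6 in H4K16ac, 36.3 in H3.3, 52.9 in H2AZ CST and 40 in H2AZ Abcam. By complex the H3K79me2 median was 65.9 in complex I, 42.2 in complex II, 88.7 in complex III, 71.0 in complex IV and 74.5 in complex V. Members that were frequent in the H2AZ lists therefore had middling or low-ranked peaks there. The lowest median by complex was that of complex IV in H2AZ CST, at 29.8, and that of complex III in H2AZ Abcam, at 20.3, where complex IV was at 37.0.

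**Figure D4:**
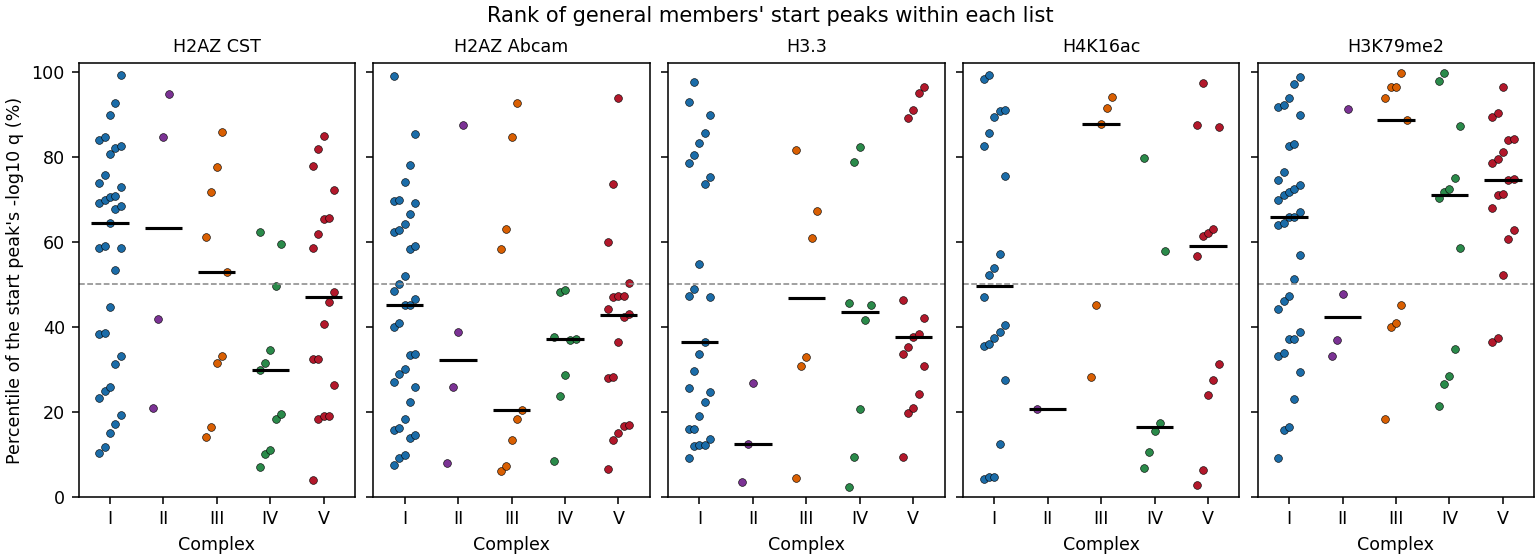
Percentile of −log10 q of general members' start peaks (y axis, %) by complex (x axis), in 1 panel per list. Points are genes with a start peak, black lines are medians and the dashed line is the median of all protein-coding genes. Complex III has the highest H3K79me2 median, at 88.7, and complex IV the lowest H2AZ CST median, at 29.8.

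H3K79me2 summits lay closer together than those of all genes, and nearer the start at the median and upper quartile but not at the lower quartile. The H3K79me2 summit lay a median of 190 bp into the gene over 66 general members with a listed start (quartiles 124 and 310), and 273 bp over all 9239 such genes (110 and 525). The H2AZ Abcam summit lay at a median of 101 bp over 62 members (−232 and 135) and 103 bp over all genes (−225 and 215). H3.3 summits lay further upstream in the pooled members, at a median of −177 bp over 47 general members, 48.9% of them inside the gene, against 127 bp and 64.2% over all 10280 such genes. The complexes differed, with medians of 49 bp in I (22 genes), −514 bp in II (2), −538 bp in III (5), 146 bp in IV (7) and −328 bp in V (11). Whether starts shared with a neighbouring gene bear on this was not tested. At the far end of listed genes of at least 5 kb, H3.3 had a peak within 1 kb at 16 of 52 general members (30.8%) against 18.9%, and H3K79me2 at 8 (15.4%) against 6.93%. H4K16ac had one at 7 (13.5%) against 17.7%, H2AZ CST at 4 (7.69%) against 7.34% and H2AZ Abcam at 3 (5.77%) against 6.73%. The far-end shares of both H2AZ lists were near their backgrounds, and a neighbouring gene's start can lie there. Far-end shares were not compared within length classes, although general members are shorter at the median than all genes. Whether gene length bears on them was not tested.

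**Figure D5:**
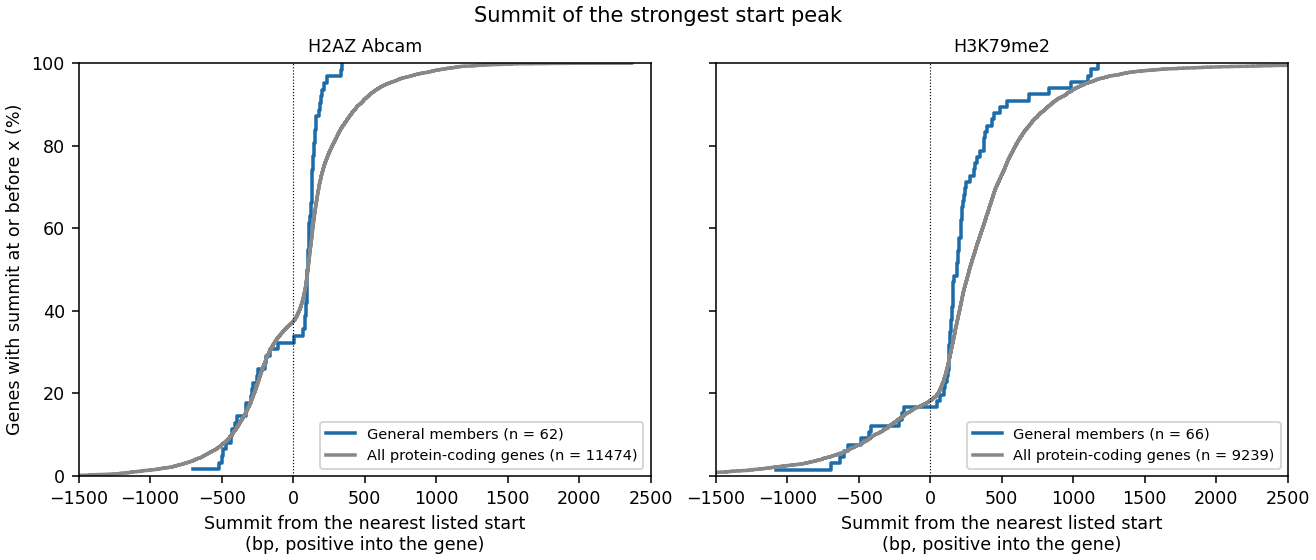
Cumulative share of genes (y axis, %) by the distance of the strongest start peak's summit from the nearest listed start (x axis, bp, positive into the gene), for H2AZ Abcam and H3K79me2. Lines are general members and all protein-coding genes. The H3K79me2 line of the members has its median at 190 bp against 273 bp, and its lower quartile at 124 bp against 110 bp.

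Shared starts were common among subunit genes. A protein-coding gene running the other way started within 1 kb upstream of 23 of 71 listed members (32.4%), all general, and of 12.3% of all listed genes. The 5 with the highest H3K79me2 were UQCRH beside LRRC41, COX4I1 beside EMC8, NDUFB11 beside RBM10, ATP5PB beside WDR77, and NDUFC1 beside NAA15. ATP5PF, which encodes a stalk subunit, starts 68 bp from GABPA, which encodes the DNA-binding part of NRF2/GABP. Whether GABPA acts on ATP5PF was not analysed here. Peaks at shared starts cannot be assigned to 1 of the 2 genes. Among the 43 listed general members with no such neighbour H3K79me2 was at 43, against 53.8% of all such genes, and H2AZ CST was at 41, against 68.6%. H2AZ Abcam was at 39 of them (69.3% of all such genes), H3.3 at 29 (62.1%) and H4K16ac at 23 (52.1%). The excess in H2AZ and H3K79me2 was thus also present at members with no listed divergent protein-coding start within 1 kb upstream. Neighbours among the 4162 protein-coding genes without a listed start could not be seen in this count.

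Promoter words of factors known for respiratory genes were more frequent at general members than at other genes. NRF1, GABPA and YY1 are transcription factors with described targets among them. Each word was searched on both strands of the 300 bases from 250 before to 50 after each listed start, in 79 promoters of 66 general members and 22132 promoters of protein-coding genes. The strict NRF1 word, 10 letters shown in capitals below, was in 4 promoters (5.06%) against 1.5%. The relaxed form, shown above for SDHA and including the strict one, was in 16 (20.3%) against 7.41%. The ETS word CCGGAAGT of GABPA was in 12 (15.2%) against 5.35%, and the YY1 word AAGATGGC in 13 (16.5%) against 3.54%. GGGCGG was in 50 (63.3%) against 56.3%, CCAAT in 26 (32.9%) against 34.6% and TATAAA in 6 (7.59%) against 9.46%. Over all 35116 promoters in the table, noncoding genes included, the shares were 1.24%, 5.78%, 4.14%, 2.89%, 45.0%, 34.6% and 11.5% for these 7 words in the order given. Over the 9465 promoters of protein-coding genes with all 5 lists they were 1.9%, 10.3%, 7.12%, 4.7%, 70.7%, 32.7% and 5.25%. GGGCGG was thus less frequent at general members than at those promoters. Counted per gene, GGGCGG was at 65.2% of general members and 64.2% of protein-coding genes, near the background. The 6 promoters of tissue-restricted members held none of the strict NRF1, ETS and YY1 words, and that of COX8C held the relaxed NRF1 word. A match is a description of the letters and not evidence of binding.

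The strict NRF1 word is shown with its surroundings for the members that have it (RefSeq, hg38, the gene's strand, word in capitals). In SDHD the capitals also mark the reverse ETS word, written ACTTCCGG.
ATP5F1C, chr10:7788145-7788174, plus strand: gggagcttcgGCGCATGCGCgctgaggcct
NDUFA8, chr9:122159764-122159793, minus strand: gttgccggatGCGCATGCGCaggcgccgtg
NDUFB4, chr3:120596167-120596196, plus strand: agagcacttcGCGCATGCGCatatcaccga
SDHD, chr11:112086753-112086811, plus strand: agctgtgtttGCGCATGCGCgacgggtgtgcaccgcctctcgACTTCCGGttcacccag
The word begins at −22 in ATP5F1C, −4 in NDUFA8, −159 in NDUFB4 and −110 in SDHD, counted from the start. All 4 genes had both H2AZ lists and H3K79me2 at the start, and NDUFB4 was the 1 of them with all 5 lists.

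Most YY1 words lay just inside the gene. On the gene's strand and within the first 50 transcribed bases it was in 10 general promoters (12.7%), against 1.83% of protein-coding promoters, a position chosen after the matches were seen. It began 11 to 39 bases after the start, and 5 of these sites are shown as examples from complexes I to III (RefSeq, hg38, the gene's strand, word in capitals).
NDUFA6, chr22:42090729-42090758, minus strand: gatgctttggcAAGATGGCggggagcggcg
NDUFA9, chr12:4649113-4649142, plus strand: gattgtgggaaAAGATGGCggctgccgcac
NDUFS7, chr19:1383913-1383942, plus strand: aggccgaggccAAGATGGCggtgctgtcag
SDHB, chr1:17054004-17054033, minus strand: cgtcaggagccAAGATGGCggcggtggtcg
UQCRC1, chr3:48609605-48609634, minus strand: actgcagctggAAGATGGCggcgtccgtgg
Each word holds the triplet ATG, and whether these are start codons was not analysed here. The other genes were ATP5PO, NDUFA3, NDUFA7, NDUFB8 and NDUFS4, and all 10 had both H2AZ lists and H3K79me2 at the start.

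Other genes of the pathway also had H2A.Z and H3K79me2 at nearly all starts. All 55 assembly factors, which build the complexes without staying in them, had H3K79me2, against 55.6% of all protein-coding genes. Each H2AZ list was at 54 (98.2%), against 70.2% for H2AZ CST and 70.7% for H2AZ Abcam. H3.3 was at 42 (76.4%) against 63.7%. H4K16ac was at 30 (54.5%) against 53.0%, near the background. Their median covered share by H3K79me2 was 21.6%, below the 42.7% of general subunits, at a longer median length of 15674 bp. CYCS, which encodes cytochrome c, had all 5 lists, with H3K79me2 at −log10 q 362, and NDUFAB1, the acyl carrier bound in complex I, had both H2AZ lists and H3K79me2 at 428. Mitochondrial ribosomal proteins, which help make the mitochondrially encoded subunits, had H3K79me2 at 75 of 77 genes (97.4%). H2AZ Abcam was at 74 (96.1%), H2AZ CST at 73 (94.8%), H3.3 at 59 (76.6%) and H4K16ac at 48 (62.3%), beside the same backgrounds. Their median covered share by H3K79me2 was 29.6% at a median length of 8618 bp, against 42.7% at 9936 bp for general subunits.

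Among 10 regulators, 9 had H3K79me2, against 55.6% of all protein-coding genes. PPARGC1A, a coactivator of mitochondrial biogenesis, was the one without it, with −log10 q of 23 in H2AZ CST, 115 in H2AZ Abcam and 17.7 in H3.3. Its relative PPARGC1B had H3K79me2 alone, at 17.2, and the third member of the family, PPRC1, had all 5 lists with H3K79me2 at 781, percentile 99. GABPA, NRF1 and YY1, named above for their words, had all 5 lists.

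Reads from near-identical copies can be placed at either copy, and no source used here says how reads matching several places were handled. The gene table held 205 pseudogenes named after 50 of the members. H3K79me2 overlapped 14 of them, and 12 of these lay inside a protein-coding gene. Of the 124 outside protein-coding genes, 2 were overlapped by H3K79me2, SDHAP3 and SDHAP4, and SDHAP3 was overlapped by all 5 lists, and whether these peaks share reads with SDHA was not tested.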

How the data were processed

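Peak lists of 5 libraries, 1 per antibody, were used as deposited. The submitters' processing notes name build hg38, MACS2 2.1.0, Bowtie 1.1.2, Trimmomatic 0.33 and bcl2fastq 2.17, and no source used here gives their settings. The deposited columns give the authors' fold enrichment (a linear ratio), −log10 p-value, −log10 q-value, display score and summit offset. The −log10 q ranked peaks within a list, and the score was not used. Genes and promoters came from RefSeq tables of GRCh38.p14, which list no start for 4162 protein-coding genes. Peaks were counted at any listed start, which was settled after seeing values, since 2 members were unmarked at their outer starts only. Named genes were the isoforms and copies, general members lacking at least 2 lists, the strongest start peak per complex and list, the highest and lowest H3K79me2 shares per complex, and 5 shared starts. Genes in other sentences were chosen after their values were seen. Members and lists were chosen with earlier results of these data known. Overlap and coverage code, run with Python 3.11.15, numpy 2.4.6, pandas 2.3.3 and scipy 1.17.1, was tested on simulated peaks. Isoform proteins were not analysed here. One member entered the counts and is not reported by name here.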

Additional observations from a re-analysis of the deposited data

How the results depend on the processing

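With 17 results and 92 alternative values, 83 stayed within 1.5 times the reported value. These covered windows of 500 bp and 2 kb, summits in place of overlaps, −log10 q of at least 5, readthrough genes counted as members, and genes of at least 1 kb. They also covered the most upstream listed start only, added after seeing the data. That gave 78 members in H2AZ CST (88.6% against a background of 68.4%), 76 in H2AZ Abcam (86.4% against 69.0%) and 61 in H3.3 (69.3% against 62.1%). H4K16ac had 48 (54.5% against 51.1%, near the background) and H3K79me2 had 76 (86.4% against 54.1%). With only the 10000 strongest peaks of each list, members with a start peak numbered 42 in H2AZ CST (47.7% against a background of 37.3%), 35 in H2AZ Abcam (39.8% against 39.3%), 20 in H3.3 (22.7% against 27.2%), 15 in H4K16ac (17.0% against 14.6%) and 73 in H3K79me2 (83.0% against 43.5%). The H2AZ Abcam share was then near its background and the H3.3 share below it. All 5 lists met at 6 members, and the share of all genes with all 5 lists was not computed in that setting. In that setting tissue-restricted members numbered 1 in H2AZ CST, 2 in H3.3 and 0 in H4K16ac. With either end of every gene, 1 tissue-restricted member had H3K79me2, NDUFA4L2 at its far end, next to SHMT2. The median share covered by H3K79me2 over all 88 members was 37.9%, and 27.2% with the strongest peaks. No paired analysis was possible because each antibody had 1 library and nothing was tested. With 1 library per antibody and unknown depth, a missing peak means not called at this depth.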
